A study of Mus musculus with 112 samples.

Results

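Zinc handling was followed through 9 genes in intestinal stem cells (ISCs), progenitors and Paneth cells of aged and young mice: the zinc importers Slc39a4, Slc39a5, Slc39a7 and Slc39a14, the zinc exporters and vesicle loaders Slc30a1, Slc30a2 and Slc30a5, and the metallothioneins Mt1 and Mt2. Members were taken by symbol from the 32285 genes of the count table, and all 9 passed the filter on low counts in every comparison. Aged animals were 23 to 27 months old and young animals 2 to 3 months old. All were C57BL/6 mice that carried the Lgr5-eGFP-IRES-CreERT2 allele, aged and young alike, a knock-in that labels Lgr5-positive crypt base cells with GFP and is known to be active in a patchy way along the gut. Cells were sorted from crypts of the proximal small intestine. Paneth cells were the CD24-high, side-scatter-high, GFP-negative fraction, progenitors the GFP-medium to GFP-low fraction, and ISCs the GFP-high fraction, the last pair both CD24-low. After the 69 technical Paneth libraries had been summed per animal, there were 12 aged and 12 young Paneth samples, 10 aged and 10 young progenitor samples, and 12 aged and 11 young ISC samples of both sexes.

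Zinc enters the cytosol through ZIP proteins, the Slc39 family, and leaves it, outward or into organelles, through ZnT proteins, the Slc30 family. Metallothioneins are small cysteine-rich proteins that bind zinc and copper in the cytosol, and their genes are known targets of the zinc-sensing transcription factor Mtf1, as is Slc30a1. In the gut, Slc39a4 is the importer of the apical membrane of absorptive cells, whose loss in humans causes the zinc deficiency acrodermatitis enteropathica. In mice, Paneth cells hold zinc in their secretory granules, and Slc30a2 is known to be needed for loading it there.

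The members lie on 8 chromosomes of GRCm38 (GENCODE M21), and each is a protein-coding gene. Mt2 (chr8:94172664-94173568, plus strand) and Mt1 (chr8:94179082-94180327, plus strand) are neighbours, with 5.51 kb between them. Slc30a1 lies at chr1:191906767-191913247 and Slc30a2 at chr4:134343181-134354484, both on the plus strand. The minus-strand members are Slc39a4 at chr15:76612383-76617384, Slc39a5 at chr10:128395931-128401229, Slc39a7 at chr17:34028269-34031682, Slc39a14 at chr14:70303469-70351425 and Slc30a5 at chr13:100802648-100833427. Exons of the antisense gene Gm45774 cover 73.5% of the exonic bases of Mt2, and those of the antisense gene 1700034H15Rik cover 8.92% of those of Slc30a1. The gene model Gm20427 shares 80.7% of the exonic bases of Slc39a7 on the same strand, but the count table has no row for Gm20427. The sources used here do not say whether counting used strand, so Mt2 and Gm45774 cannot be told apart where they overlap.

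RefSeq start-site windows of GRCm38.p6, which run from 250 bases before a gene's start to 50 after it, were matched to 7 of the 9 members. No entry was matched for Slc39a4 and Slc39a14. The windows of both metallothionein genes and of Slc30a1 are printed 5′ to 3′ on the plus strand, as these are the members known as Mtf1 targets. Capitals mark matches, on either strand, to TGCACNC or TGCGCNC, the core of the metal response element to which Mtf1 binds. The fourth base differs between these motifs, so no stretch can match both on the same strand.
Mt2 (chr8:94172368-94172667): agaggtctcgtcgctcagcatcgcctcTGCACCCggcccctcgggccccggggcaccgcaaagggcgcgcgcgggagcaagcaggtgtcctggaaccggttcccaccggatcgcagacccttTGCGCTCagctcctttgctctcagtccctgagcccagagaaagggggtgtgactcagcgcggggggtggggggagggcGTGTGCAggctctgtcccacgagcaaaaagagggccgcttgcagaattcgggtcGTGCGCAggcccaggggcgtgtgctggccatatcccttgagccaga
Mt1 (chr8:94178839-94179138): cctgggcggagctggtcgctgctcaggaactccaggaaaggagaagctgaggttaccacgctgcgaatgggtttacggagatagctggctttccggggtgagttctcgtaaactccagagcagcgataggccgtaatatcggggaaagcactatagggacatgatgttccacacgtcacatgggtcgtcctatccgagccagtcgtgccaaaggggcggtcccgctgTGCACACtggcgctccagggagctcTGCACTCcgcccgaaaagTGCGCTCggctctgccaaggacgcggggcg
Slc30a1 (chr1:191906531-191906830): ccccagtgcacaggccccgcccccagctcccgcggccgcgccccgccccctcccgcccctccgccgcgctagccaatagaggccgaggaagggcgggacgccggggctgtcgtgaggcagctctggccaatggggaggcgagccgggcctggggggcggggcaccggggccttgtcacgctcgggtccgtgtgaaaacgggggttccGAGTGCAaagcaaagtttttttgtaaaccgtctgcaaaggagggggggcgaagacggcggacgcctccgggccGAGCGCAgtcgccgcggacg
The Mt2 window held 4 matches, the Mt1 window 3 and the Slc30a1 window 2. Of 32851 windows of the same length, 25.7% held at least 1 match, 7.11% at least 2, 1.97% at least 3 and 0.517% at least 4. Slc30a2 held 2 matches, Slc30a5 held 1, 1 of the 2 windows of Slc39a5 held 1, and Slc39a7 held 0. A match is a description of the letters and not a measured binding site.

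Expression was measured by SC3-seq, which reads the 3′ ends of transcripts from 1 ng of RNA, and values are TMM-normalised CPM, counts scaled to a common library size, on 1 scale for all 67 samples. A level is therefore compared between samples and not between genes. Samples held 2.18 to 5.59 M counts in ISCs, 2.48 to 7.57 M in progenitors and 2.82 to 11.8 M in Paneth cells. In Paneth cells 31.4 to 73.4% of these counts came from the mitochondrial genome, which left 1.09 to 5.68 M. The sorted populations carried their markers: summed Paneth markers had medians of 201000 and 147000 CPM in aged and young Paneth cells and at most 2140 CPM in any sample of the other populations. Goblet markers had medians of 18800 and 19500 CPM in aged and young progenitors, so goblet transcripts were part of that gate. Enterocyte, enteroendocrine and tuft markers were present in Paneth samples (medians 1290, 1910 and 321 CPM in aged and 1450, 899 and 399 CPM in young mice). Paneth samples also held goblet, ISC and immune markers (medians 4690, 2890 and 82.1 CPM in aged and 4100, 2500 and 69 CPM in young mice). The part of these other cells in the Paneth values of the members was not tested. ISC aged female replicate 2 carried 278 CPM of immune markers, against at most 5.8 CPM in any other ISC sample.

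**Figure D1:**
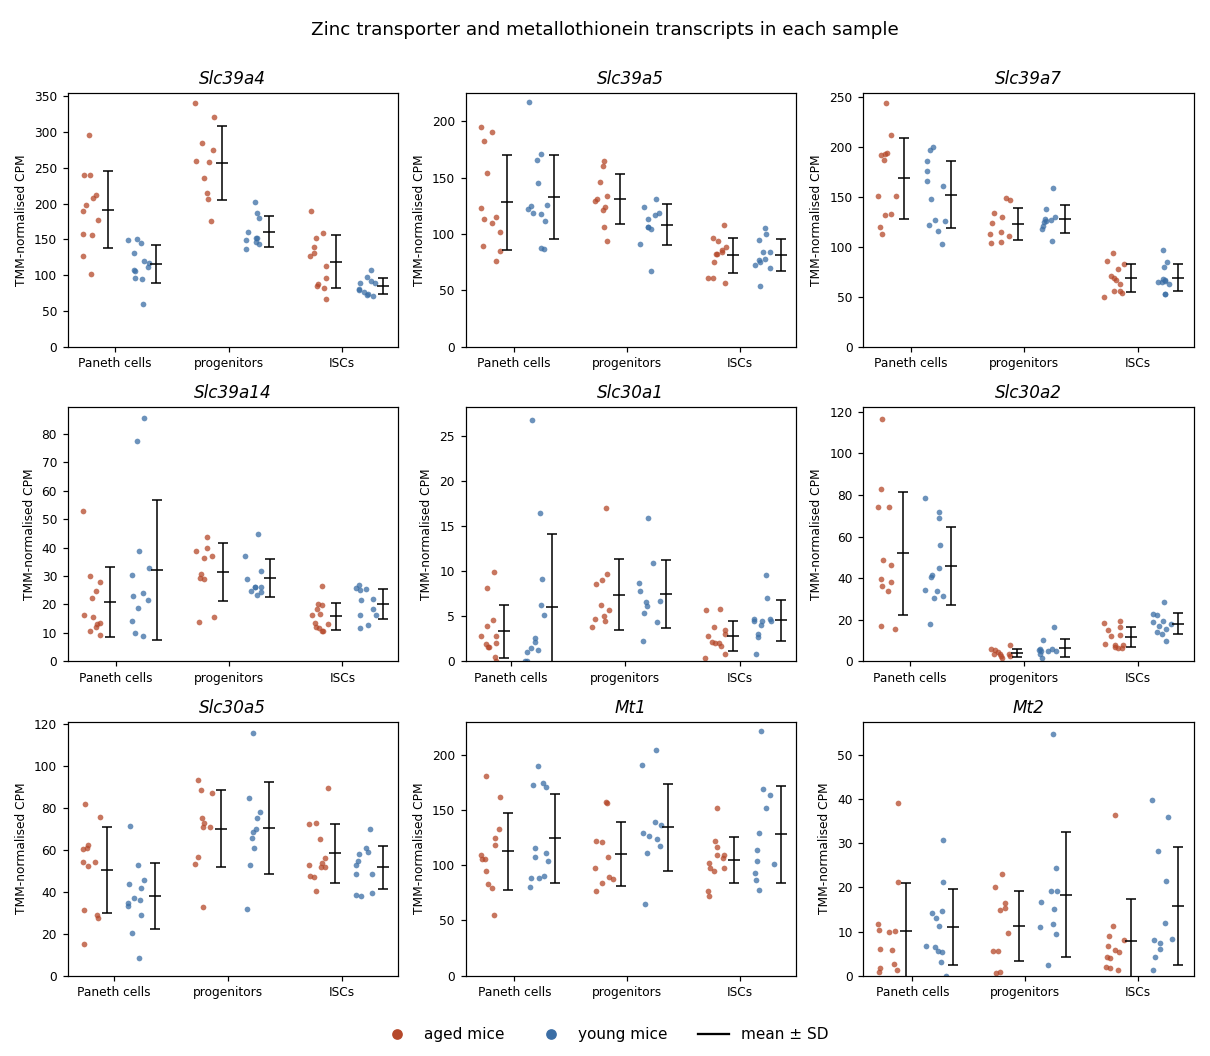
Level of each member in every sample, in TMM-normalised CPM (each panel has its own linear axis from 0). Points are animals, aged left of young within Paneth cells, progenitors and ISCs. Bars are the mean ± SD, drawn down to 0 where the SD exceeds the mean. Slc39a4 stands higher in aged samples of all 3 populations, and Slc30a2 stands highest in Paneth cells on this scale. With library totals left unscaled, Slc30a2 of young Paneth cells falls below that of young ISCs without passing the threshold.

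Slc39a4, the apical zinc importer, was the member that changed with age. It rose 1.59-fold in progenitors and 1.41-fold in ISCs of aged mice, and in Paneth cells its estimate was 1.64-fold without passing the threshold. The question was whether aging alters the transcripts of each sorted population, and it was answered by the mean of the male and the female difference between aged and young mice, tested with edgeR's quasi-likelihood test at a Benjamini-Hochberg adjusted p below 0.05 over all genes of that population. In bulk samples, fewer cells of a type and less RNA per cell cannot be told apart.

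In progenitors, Slc39a4 ranged from 175 to 340 CPM with a median of 258.5 in 10 aged samples, against 136 to 202 CPM with a median of 152 in 10 young samples. Of the aged samples, 9 of 10 lay above the highest young one. The difference was 0.67 ± 0.10 on the log2 scale (SE; edgeR adjusted p = 0.000339), and Slc39a4 ranked at 9 by p among 11812 genes. It was 1 of 9 members called in this comparison, where 0.728% of all genes tested were called (0.466% higher, 0.262% lower). The call was kept in all 20 fits that left out 1 sample, with log2 differences of 0.60 to 0.72.

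In ISCs, Slc39a4 ranged from 66.3 to 189 CPM with a median of 120 in 12 aged samples, against 70.4 to 107 CPM with a median of 80.3 in 11 young samples. The groups overlapped, with 7 of 12 aged samples above the highest young one and 1 below the lowest. The log2 difference was 0.49 ± 0.12 (edgeR adjusted p = 0.0473), and Slc39a4 was 1 of 9 members called, where 0.351% of all genes tested were called (0.284% higher, 0.0669% lower). The call lay close to the threshold: it was lost in 16 of 23 fits that left out 1 sample, with adjusted p between 0.052 and 0.13. These were the fits without aged female replicates 1, 2, 3 or 5, aged male replicates 3, 4 or 6, young female replicates 1, 3, 4, 5 or 6, and young male replicates 2, 3, 4 or 5, and in all of the 23 the log2 difference was 0.43 to 0.53. Without aged female replicate 2, the sample with immune transcripts, it was 0.48 (adjusted p = 0.0749).

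In Paneth cells, Slc39a4 ranged from 102 to 296 CPM with a median of 194 in 12 aged samples, against 59.7 to 151 CPM with a median of 114 in 12 young samples. Of the aged samples, 10 of 12 lay above the highest young one. The log2 difference was 0.72 ± 0.16 (unadjusted p = 8.54e-05, edgeR adjusted p = 0.0712). In this comparison 0.0686% of all genes tested were called (0.06% higher, 0.00857% lower), and 0 of 9 members, with 1 member at an unadjusted p below 0.05. The value was called in 5 of 34 alternatives (highest adjusted p 0.324), and it was not called in 22 of 24 fits that left out 1 sample. Calls came without aged female replicate 3 (adjusted p = 0.0435), without aged male replicate 7 (0.0304) and by DESeq2 (0.019). The others were unscaled totals (0.0257) and a single fit of all 3 populations (0.000499). That single fit shares 1 estimate of the spread between populations and called 346 genes in all, against 8 as reported.

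The log2 estimate for Slc39a4 was positive in both sexes of all 3 populations. In progenitors it averaged 266 ± 41.8 CPM in aged females against 151 ± 16.7 CPM in young females, and 248 ± 62.95 CPM in aged males against 170 ± 23.5 CPM in young males (SD, n = 5 each). In ISCs it averaged 146 ± 29.3 CPM in 5 aged females against 86.8 ± 13.4 CPM in 6 young females, and 99.55 ± 29.8 CPM in 7 aged males against 81.7 ± 8.83 CPM in 5 young males. In Paneth cells it averaged 206 ± 67.4 CPM in 5 aged females against 110 ± 31.05 CPM in 6 young females, and 181 ± 43.4 CPM in 7 aged males against 122 ± 22.1 CPM in 6 young males. Within one sex, the comparison in progenitors of females was called (log2 0.80 ± 0.15, edgeR adjusted p = 0.0103) and the other 5 were not. On the log2 scale the age effect in males minus that in females was -0.26 in progenitors, -0.46 in ISCs and -0.34 in Paneth cells, and none of these differences passed the test (lowest edgeR adjusted p = 0.713).

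**Figure D2:**
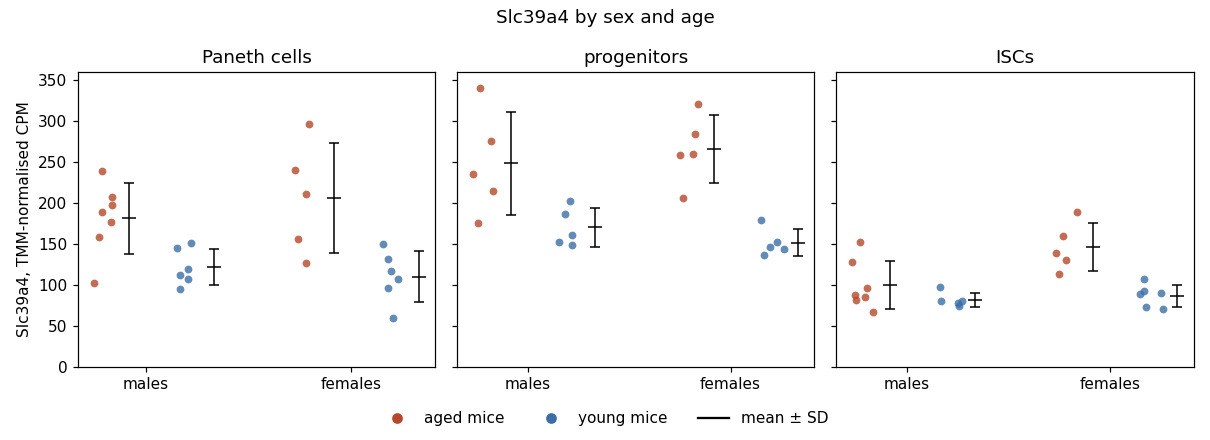
Slc39a4 in TMM-normalised CPM (linear axis from 0) by sex in Paneth cells, progenitors and ISCs, aged left of young. Points are animals and bars the mean ± SD; aged means lie above young means in both sexes of all 3 populations, by the least in ISCs of males (99.55 against 81.7 CPM).

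Markers of other cells were read beside Slc39a4. In progenitors the summed enterocyte markers ranged from 342 to 1580 CPM (median 818) in aged and from 398 to 755 CPM (median 699) in young mice, with 0 of 8 called and a median log2 difference of 0.53. The enteroendocrine markers ranged from 220 to 1010 CPM (median 497) in aged and from 77.9 to 317 CPM (median 223) in young progenitors, and 1 of 7 was called, the hormone gene Sct (log2 0.75, edgeR adjusted p = 0.0227). The median log2 difference of those 7 was 1.07. In Paneth cells the enteroendocrine sum ranged from 211 to 3580 CPM (median 1910) in aged and from 181 to 3080 CPM (median 899) in young mice, with 0 of 7 called. Mitochondrial transcripts took 51.6 ± 10.9% of counts in aged and 61.6 ± 6.74% in young Paneth cells. In ISCs the enterocyte sums were 48 to 140 CPM (median 85.1) in aged and 50.3 to 105 CPM (median 83.6) in young mice, with 0 of 7 tested called. Their enteroendocrine sums were 0.935 to 35.5 CPM (median 18.4) in aged and 3.12 to 36.5 CPM (median 6.69) in young mice. No marker of these lists was at 0 in every sample of a group, and the part of these cells in the Slc39a4 result was not tested.

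The other importers did not pass the test with age in any population. Slc39a5, the basolateral importer of absorptive cells, averaged 131 ± 22.1 CPM in aged and 108 ± 18.2 CPM in young progenitors (log2 0.27 ± 0.11, adjusted p = 0.388). Its means in ISCs were 81.4 ± 15.6 CPM in aged and 81.4 ± 14.6 CPM in young mice, with a 95% interval of the log2 difference of -0.22 to 0.22. Slc39a7, which releases zinc from the endoplasmic reticulum and Golgi and is needed for epithelial renewal in mice, averaged 169 ± 41.05 CPM in aged and 153 ± 33.6 CPM in young Paneth cells. Its intervals were -0.25 to 0.12 in progenitors, -0.28 to 0.21 in ISCs and -0.18 to 0.42 in Paneth cells. Slc39a14, an importer of zinc, iron and manganese, averaged 15.8 ± 4.76 CPM in aged and 20.15 ± 5.43 CPM in young ISCs (log2 -0.40 ± 0.20, unadjusted p = 0.048, adjusted p = 0.551), and 11 of 12 aged ISC samples lay below the young median.

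Among the exporters, the lowest p with age belonged to Slc30a2 in ISCs. It ranged from 6.46 to 19.2 CPM with a median of 10.2 in 12 aged ISC samples, against 9.59 to 28.3 CPM with a median of 17.95 in 11 young ones. Of the aged samples, 6 of 12 lay below the lowest young one, and the log2 difference was -0.80 ± 0.22 (unadjusted p = 0.000814, edgeR adjusted p = 0.119), which did not pass. DESeq2 called it (adjusted p = 0.0271). In progenitors Slc30a2 averaged 4.02 ± 1.81 CPM in aged and 6.38 ± 4.23 CPM in young mice (log2 -0.68 ± 0.34, adjusted p = 0.562), and in Paneth cells 51.9 ± 29.6 CPM in aged and 45.8 ± 18.9 CPM in young mice (log2 0.17 ± 0.26, adjusted p = 0.958). Summed Paneth markers in ISCs, among which Slc30a2 is not listed, ranged from 186 to 969 CPM (median 350) in aged and from 211 to 1130 CPM (median 357) in young mice.

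Slc30a5, which loads zinc into the early secretory pathway, and Slc30a1, the exporter of the plasma membrane, did not pass in any population. Slc30a5 averaged 50.5 ± 20.5 CPM in aged and 37.9 ± 15.8 CPM in young Paneth cells (log2 0.39 ± 0.27, adjusted p = 0.856). Slc30a1 was scarce, at 2.79 ± 1.69 CPM in aged and 4.54 ± 2.26 CPM in young ISCs (log2 -0.79 ± 0.44, adjusted p = 0.65). In Paneth cells it had no count in 1 of 12 aged and 2 of 12 young samples and in 25 of 69 technical libraries, and its interval of -1.87 to 0.99 leaves a change in either direction undetectable at this depth.

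Both metallothioneins had negative log2 estimates with age in all 3 populations, and none passed the test. Mt1 averaged 104.5 ± 20.7 CPM in aged and 128 ± 43.9 CPM in young ISCs (log2 -0.33 ± 0.14, unadjusted p = 0.0194, adjusted p = 0.433). In progenitors it averaged 110 ± 29.05 CPM in aged and 134 ± 39.5 CPM in young mice (log2 -0.30 ± 0.17, adjusted p = 0.658), and in Paneth cells 112.5 ± 34.9 CPM in aged and 124 ± 40.3 CPM in young mice (log2 -0.18 ± 0.17, adjusted p = 0.922). Mt2 varied more between samples. It ranged from 1.27 to 36.5 CPM with a median of 5.61 in aged ISCs, against 1.3 to 39.7 CPM with a median of 8.4 in young ISCs (log2 -1.16 ± 0.55, unadjusted p = 0.0474, adjusted p = 0.55). The aged and young ranges of Mt2 nearly coincided in ISCs, and 9 of 12 aged samples lay below the young median. The antisense gene Gm45774 averaged 3.43 ± 2.2 CPM in aged and 9.22 ± 9.91 CPM in young ISCs (log2 -1.47 ± 0.45, adjusted p = 0.21).

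**Figure D3:**
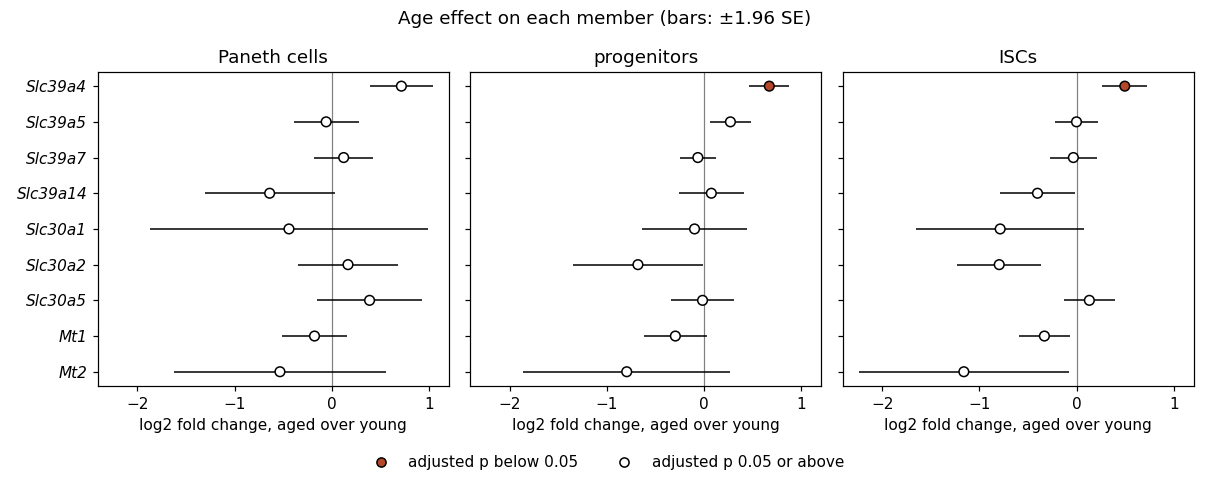
Log2 fold change of each member, aged over young, in Paneth cells, progenitors and ISCs, with bars of the 95% interval from edgeR. Filled points passed an adjusted p of 0.05: Slc39a4 in progenitors (0.67) and in ISCs (0.49).

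Age effects were then compared between populations in a single fit of all 67 samples. For none of the 9 members did the age effect pass the test of a difference between any pair of populations, against 0.0376% of all genes called for Paneth cells against ISCs (0.00753% higher, 0.0301% lower), 0.00753% for progenitors against ISCs and 0% for Paneth cells against progenitors. For Slc39a4 the age effect in Paneth cells was larger than that in ISCs by 0.23 ± 0.19 (95% interval -0.15 to 0.60), and that in progenitors larger than that in ISCs by 0.16 ± 0.20 (-0.22 to 0.54). The lowest p was that of Slc30a2, whose age effect was higher by 0.97 ± 0.37 in Paneth cells than in ISCs (unadjusted p = 0.011, edgeR adjusted p = 0.347). At an unadjusted p below 0.05 there was 1 member each in the comparisons of Paneth cells with ISCs and with progenitors, Slc30a2 in both, and 0 in that of progenitors with ISCs. DESeq2, limma-voom and the fit with animal as a block called 0 members as well.

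No member's age effect passed the test of a difference between the sexes in any population (0 of 9 in each, with 0% of all genes called in each). The members with the lowest unadjusted p were Slc39a14 and Slc30a1 in Paneth cells. Slc39a14 averaged 16.4 ± 8.05 CPM in 5 aged females against 43.0 ± 31.35 CPM in 6 young females, and 23.7 ± 14.5 CPM in 7 aged males against 21.2 ± 8.99 CPM in 6 young males (difference of age effects, males over females, 1.55 ± 0.69, edgeR adjusted p = 0.918). Slc30a1 averaged 2.62 ± 0.90 CPM in aged females against 10.4 ± 9.61 CPM in young females, and 3.78 ± 3.87 CPM in aged males against 1.65 ± 2.33 CPM in young males (3.09 ± 1.49, edgeR adjusted p = 0.923). These were the 2 members at an unadjusted p below 0.05 in Paneth cells, and there were 0 in progenitors and 0 in ISCs.

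More members were called between the sorted populations than with age. Slc30a2, the vesicle loader of Paneth granules, was highest in Paneth cells and lowest in progenitors at both ages. The exception came with library totals left unscaled, where it was lower in Paneth cells than in ISCs of young mice. That value (log2 -0.51, adjusted p = 0.0831) fell short of the threshold. The importers Slc39a4, Slc39a5 and Slc39a7 were higher in Paneth cells and in progenitors than in ISCs at both ages, with the Paneth direction turned round in that unscaled fit. Neither metallothionein differed between any pair of populations past the threshold, and both were lower in Paneth cells in the unscaled fit. These directions are relative to the bulk of genes: with library totals left unscaled, the median of all genes moved to -1.61 in aged and -1.85 in young mice for Paneth cells against ISCs, where mitochondrial transcripts took a large share of Paneth counts. For Paneth cells against ISCs, 4 of 9 members were called in aged mice, all higher (30.1% of all genes called, 17.3% higher), and 4 of 9 in young mice, all higher (29.2%, 16.8% higher). For Paneth cells against progenitors, 3 of 9 were called in aged mice, 2 of them higher (24.8% of all genes called, 13.8% higher and 11% lower), and 3 of 9 in young mice, 1 of them higher (26.1%, 14.1% higher and 12% lower). For progenitors against ISCs, 6 of 9 were called in aged mice, 5 of them higher (25.1% of all genes called, 14.1% higher and 11% lower), and 4 of 9 in young mice, 3 of them higher (22.7%, 13.3% higher and 9.47% lower).

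**Figure D4:**
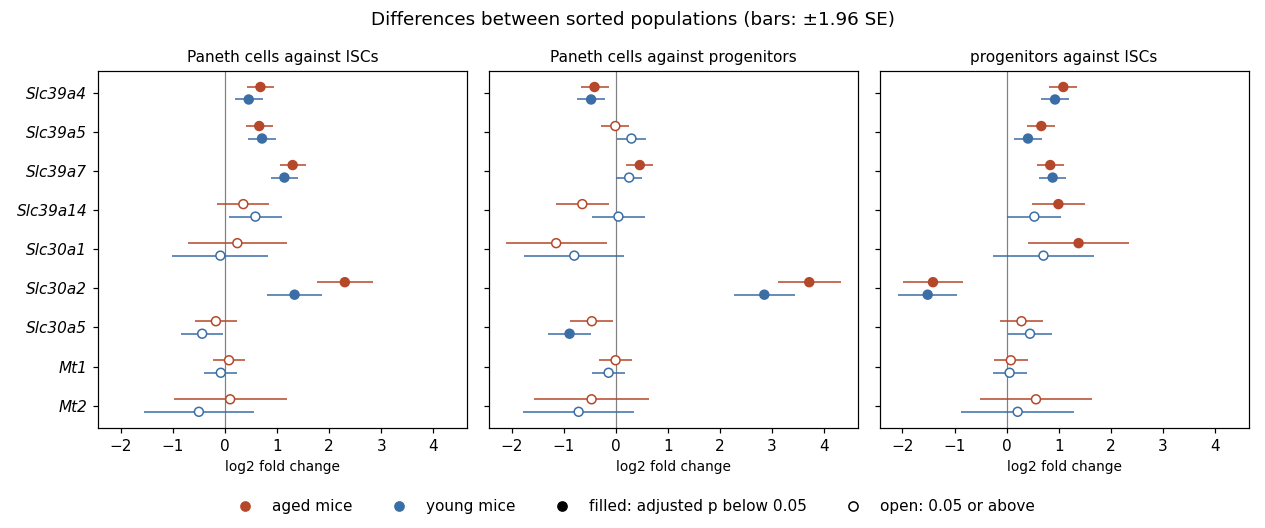
Log2 fold change of each member between populations in aged and young mice, with bars of the 95% interval from edgeR, the first-named population over the second. Filled points passed an adjusted p of 0.05; Slc30a2 reaches 3.71 in aged and 2.85 in young mice for Paneth cells against progenitors, and the points of both metallothioneins are not filled in any panel. Directions are relative to the bulk of genes, and with unscaled library totals those of Slc39a4, Slc39a5 and Slc39a7 for Paneth cells against ISCs, and of Slc30a2 in young mice, turn round. The turned values of Slc39a7 in aged mice and of Slc30a2 in young mice fall short of the threshold.

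Slc30a2 ranged from 15.4 to 116 CPM (median 42.8) in aged and from 17.9 to 78.6 CPM (median 40.95) in young Paneth cells. Progenitors held 1.46 to 7.6 CPM (median 3.56) in aged and 1.4 to 16.6 CPM (median 5.15) in young mice, and ISCs lay between. At both ages every one of 12 Paneth samples lay above every progenitor sample. Paneth cells exceeded progenitors 13.1-fold in aged mice (log2 3.71 ± 0.31, edgeR adjusted p = 1.26e-16) and 7.215-fold in young mice (2.85 ± 0.30, 1.65e-12). They exceeded ISCs 4.925-fold in aged mice (2.30 ± 0.27, 7.91e-11) and 2.52-fold in young mice (1.34 ± 0.27, 5.05e-05). Progenitors were lower than ISCs, with log2 differences of -1.41 ± 0.29 in aged and -1.52 ± 0.29 in young mice. In animals that gave both populations, Slc30a2 was higher in Paneth cells than in ISCs in 8 of 8 aged and 7 of 7 young mice, and lower in progenitors than in ISCs in 5 of 5 aged and 5 of 5 young mice.

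The order of Slc39a7 was Paneth cells, then progenitors, then ISCs. Its range was 113 to 245 CPM in aged and 103 to 200.3 CPM in young Paneth cells, 104 to 149.5 CPM in aged and 106 to 159 CPM in young progenitors, and 50.2 to 93.8 CPM in aged and 52.8 to 97.0 CPM in young ISCs. No Paneth or progenitor sample overlapped the ISC samples of its age. Against ISCs, the log2 difference was 1.298 ± 0.127 in aged and 1.14 ± 0.13 in young Paneth cells, and 0.84 ± 0.13 in aged and 0.88 ± 0.13 in young progenitors (highest edgeR adjusted p = 2.61e-07). Paneth cells and progenitors differed in aged mice (log2 0.46 ± 0.13, adjusted p = 0.00531), a call lost with animal as a block (adjusted p = 0.0745), without replicate 1 (0.0601) and without animals of 26 and 27 months (0.411), and turned round with unscaled totals (-0.99). In young mice that pair did not pass (0.26 ± 0.13, adjusted p = 0.137).

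Slc39a4 was highest in progenitors, then in Paneth cells, then in ISCs. Progenitors exceeded ISCs 2.13-fold in aged mice (log2 1.09 ± 0.14, edgeR adjusted p = 8.52e-10) and 1.91-fold in young mice (0.93 ± 0.14, 1.46e-07), and in young mice the samples did not overlap. Paneth cells exceeded ISCs by 0.68 ± 0.13 in aged mice (adjusted p = 2.92e-05) and by 0.45 ± 0.14 in young mice (adjusted p = 0.00679). The call in young mice was lost without replicate 3 (0.0734), by limma-voom (0.0617) and with the first technical library of each animal in place of the sum (0.0699). Paneth cells were below progenitors by log2 -0.41 ± 0.14 in aged mice (adjusted p = 0.0199) and -0.48 ± 0.14 in young mice (adjusted p = 0.00588). The aged call was lost without replicate 3 (0.103) or replicate 5 (0.353), by DESeq2 (0.0607), with its size factors (0.0624) and with the first technical library (log2 -0.05, adjusted p = 0.899). With that library the young call was lost too (log2 -0.45, adjusted p = 0.102).

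Slc39a5 averaged 128 ± 41.95 CPM in aged and 133 ± 36.9 CPM in young Paneth cells, and exceeded ISCs by 0.66 ± 0.13 in aged and 0.71 ± 0.14 in young mice on the log2 scale (highest edgeR adjusted p = 5.93e-05). Progenitors exceeded ISCs by 0.67 ± 0.14 in aged mice (adjusted p = 9.35e-05) and by 0.41 ± 0.14 in young mice (adjusted p = 0.0249). The young call was lost with animal as a block (0.205) and without replicate 1 (0.0561), 2 (0.0896) or 3 (0.131). It was also lost by DESeq2 (0.0577), with its size factors (0.0648), with unscaled totals (0.228), with the first technical library (0.139) and without mitochondrially encoded genes (0.0516). Slc39a14 averaged 31.4 ± 10.1 CPM in aged progenitors against 15.8 ± 4.76 CPM in aged ISCs (log2 0.99 ± 0.26, adjusted p = 0.00232), and 29.3 ± 6.79 CPM in young progenitors against 20.15 ± 5.43 CPM in young ISCs (0.53 ± 0.26, adjusted p = 0.145). The aged call was lost with the first technical library (adjusted p = 0.0602). The change of this difference with age was not called (0.46 ± 0.37).

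Slc30a5 was lower in Paneth cells than in progenitors of young mice, at 37.9 ± 15.8 CPM against 70.4 ± 21.8 CPM (log2 -0.89 ± 0.21, edgeR adjusted p = 0.000728). In aged mice the means were 50.5 ± 20.5 CPM in Paneth cells and 70.2 ± 18.5 CPM in progenitors (-0.46 ± 0.21, adjusted p = 0.0993). Slc30a1 averaged 7.4 ± 3.94 CPM in aged progenitors against 2.79 ± 1.69 CPM in aged ISCs (1.38 ± 0.49, adjusted p = 0.0293). This call was lost with animal as a block (0.183) and without replicate 2 (0.075), 3 (0.147) or 5 (0.0507). It was also lost with unscaled totals (0.0608), with the first technical library (0.135) and without animals of 26 and 27 months (0.087). Mt1 means lay between 104.5 and 134 CPM in all 6 combinations of population and age, with log2 differences between populations of -0.14 to 0.08 (SE 0.16 to 0.17). Mt2 differences ranged from -0.71 to 0.56 with SEs of 0.54 to 0.56, so differences of that size were not detectable for Mt2. Gm45774, the antisense gene over Mt2, was higher in progenitors than in ISCs of aged mice (log2 1.38 ± 0.51, edgeR adjusted p = 0.0377). It passed for no other pair of populations at either age.

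Mt1 and Mt2 varied together between samples of a population, with ages and sexes pooled in the correlations and their permutations. In progenitors their log2 values correlated at Pearson r = 0.815 (permutation p = 2e-05, the smallest that 100000 permutations can give, adjusted 6e-05) and Spearman rho = 0.794 (adjusted permutation p = 0.00018) over 20 samples, and r was 0.741 without the 2 samples farthest from the median of Mt1. In Paneth cells r was 0.448 and rho 0.525 over 24 samples (adjusted permutation p = 0.0326 and 0.013), and r fell to 0.329 without those 2 samples. With each group of age and sex centred on its mean, r was 0.809 in progenitors, 0.799 in all ISCs and 0.32 in Paneth cells, and these centred values were not tested. ISC samples fell into 2 sets, split at 20 CPM of Mt2 after the values were seen: 5 samples, 1 aged and 4 young, had 21.4 to 39.7 CPM of Mt2 and 151 to 222 CPM of Mt1, and the other 18 had 1.27 to 12 CPM of Mt2 and 72.4 to 129 CPM of Mt1. Within the 18, r was 0.516 and rho 0.482 (adjusted permutation p = 0.0326 and 0.0432 over the 3 relations). These p-values take no account of the cutoff, which was set on Mt2 itself, so no conclusion is drawn from them. The relation over all ISC samples was not tested. Of the 5 samples above 20 CPM, only young female replicate 6 and young male replicate 5 came from animals that also gave another population. That young female had the highest Mt2 of all progenitor samples, at 54.8 CPM, and 30.8 CPM in Paneth cells. That young male had 24.3 CPM of Mt2 in progenitors. Among the other pairs of members, none reached the r of Mt1 and Mt2 over all 67 samples with groups centred (0.624, against at most 0.354 for any other pair). Within Paneth cells alone Mt1 and Mt2 were not the highest pair, with a centred r of 0.443 for Slc39a4 and Slc39a5. Over all 67 samples with groups centred, Slc30a1, also known as an Mtf1 target, had r of -0.03 with Mt1 and -0.07 with Mt2. The part of Mtf1 in this variation was not tested.

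**Figure D5:**
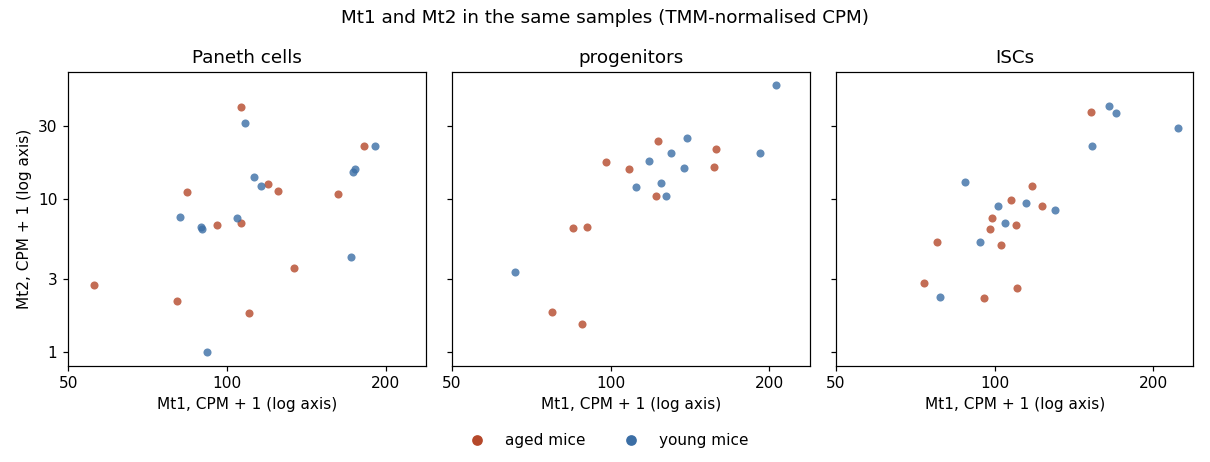
Mt2 against Mt1 in each sample, both as TMM-normalised CPM plus 1 on log axes, in Paneth cells, progenitors and ISCs, with aged and young animals in different colours. Samples high in Mt1 tend to be high in Mt2 in progenitors (r = 0.815, n = 20), and 5 ISC samples stand apart above 20 CPM of Mt2.

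Further genes of zinc handling were read from a list of 20, made of other zinc transporters, Mt3, Mt4 and the transcription factor gene Mtf1, of which 14 were tested in Paneth cells, 14 in progenitors and 13 in ISCs for age. None was called with age (median log2 difference 0.25 in Paneth cells, -0.02 in progenitors and -0.04 in ISCs, against medians within 0.01 of 0 for all genes). In young mice 4 of 15 were called for progenitors against ISCs, all higher, beside 22.7% of all genes. They were Slc39a11 (log2 1.102 ± 0.173), the Golgi loader Slc30a7 (0.93 ± 0.20), the vesicular Slc30a4 (0.69 ± 0.26) and Slc30a10, a manganese exporter. Slc30a10 had 90 counts over 10 progenitor samples and 19 counts over 11 ISC samples, 10 of them at 0. For Paneth cells against ISCs 3 of 15 were called, all higher, beside 29.2% of all genes: Slc39a11 (1.23 ± 0.17), Slc39a13 (1.21 ± 0.35), a transporter of the early secretory pathway, and Slc30a10, with 168 counts in 5 of 12 Paneth samples. For Paneth cells against progenitors 2 of 15 were called, beside 26.1% of all genes, with Slc39a13 higher (1.67 ± 0.37) and Slc30a7 lower (-0.63 ± 0.19). In aged mice 6 of 15 were called for Paneth cells against ISCs (30.1% of all genes), 3 of 15 for Paneth cells against progenitors (24.8%) and 3 of 15 for progenitors against ISCs (25.1%), all higher.

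Lists of genes that respond to stimuli known to act on metallothioneins were read beside them. Of 7 tested glucocorticoid response genes, 0 were called with age in ISCs, progenitors or Paneth cells. Of 8 tested genes of the metal and oxidant response 0 were called either. With age, 0.0686% of all genes tested were called for Paneth cells, 0.351% for ISCs and 0.728% for progenitors. At such rates, 0 calls in lists of 7 and 8 genes do not set them apart from other genes. Of 13 dissociation stress genes 2 were called, both higher in aged progenitors: the stress transcription factors Atf3 (log2 2.08 ± 0.47, edgeR adjusted p = 0.0203) and Fosb (2.09 ± 0.50, adjusted p = 0.0308). The summed stress genes ranged from 285 to 638 CPM (median 380) in aged and 237 to 415 CPM (median 298) in young progenitors. In ISCs they ranged from 417 to 916 CPM in aged and 258 to 887 CPM in young mice. In Paneth cells they ranged from 423 to 922 CPM in aged and 418 to 646 CPM in young mice. The median was higher in aged than in young mice in ISCs and Paneth cells as well. The median log2 difference with age of the 13 genes was 0.629 in progenitors, 0.596 in ISCs and 0.467 in Paneth cells. The part of handling in the values of the members was not tested.

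Genes whose pattern was most like that of a member were ranked by Pearson r of log2 values over the 67 samples, which share populations and depth. Slc30a2 was most like Cd24a (r = 0.859), which encodes the antigen of the sort gates, then Tent5c (0.829) and the alpha-defensin Defa22 (0.815). Slc39a7 was most like P4hb (0.919), a disulphide isomerase of the endoplasmic reticulum, followed by Tspan1 and Ramp1 (0.884 each). Slc39a4 was most like Prss32 (0.749), Cldn3 (0.736) and Rnh1 (0.732), and Slc30a5 most like Atp6v1h (0.767), Tank (0.759) and Ndfip2 (0.758). Slc39a5 was most like Ltbr (0.741), Slc30a1 most like Rmdn1 (0.626) and Slc39a14 most like Abcc3 (0.573). With group means removed, the 3 genes most like Slc30a5 were the same, with r from 0.666 to 0.723. Mt1 was then most like the ribosomal genes Rpl32 (0.643) and Fau (0.628), followed by Mt2.

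Among technical Paneth libraries the spread of every member was larger within animals than between animal means. The first is the spread of single libraries and the second that of means over libraries, which averaging makes smaller. The SD within animals was 85.5 CPM of non-mitochondrial counts for Slc39a4 and 33.9 for Slc30a2, against SDs of 60.3 and 22.1 between animal means. Each library held a median of 145 counts of Slc39a4, 50 of Slc30a2, 5 of Mt2 and 1 of Slc30a1.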

How the data were processed

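SC3-seq libraries of sorted crypt cells were read as the authors' deposited table of raw counts per gene (112 libraries, 32285 genes). Per the submitters' processing notes, cutadapt 3.0, STAR 2.7.9a, HTSeq 0.13.5 and DESeq2 1.30.1 were used with the mm10 build. No source used here names the gene annotation or says whether strand counted. CPM values deposited by the authors equalled counts scaled to each library's total within 4.95e-10 and were used only for that check. Rows without a gene symbol (127 genes, 0.00162% of counts) were kept under their gene identifiers and passed over only in the ranking of likeness.

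Technical Paneth libraries were summed per animal, giving 67 samples of 36 animal names. A pair of similar names among aged males, 1 in ISCs and progenitors and the other in Paneth cells, was treated as separate animals, and no population holds both.

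Genes were filtered with edgeR 4.0.16 (filterByExpr, minimum count 10), which kept 11958 genes in ISCs, 11812 in progenitors, 11663 in Paneth cells and 13287 in the fit of all samples. TMM scaling, robust quasi-likelihood fits and Benjamini-Hochberg adjustment over all genes tested followed, with a threshold of 0.05 (R 4.3.3, limma 3.58.1). Age effects came from a fit per population, as the mean of both sexes, and contrasts between populations and differences of age effects from 1 fit of 12 groups. Values are mean ± SD over samples for CPM and ± SE for log2 differences, and intervals are 95%. The biological coefficient of variation was 0.706 in Paneth cells, 0.333 in progenitors and 0.433 in ISCs. Correlations used log2(CPM + 1) and 100000 permutations. Likeness was ranked among genes with a mean of at least 5 CPM. The fitting code was tested on simulated data.

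All members were named throughout. Other zinc genes were named where called with age or among the 4 largest called changes between populations in young mice, and up to 4 called genes of each response list were named. Members and lists were chosen with earlier results of these data known. Alternatives were DESeq2 1.42.0, its size factors, unscaled totals, limma-voom, no filter, 1 technical library per animal, no mitochondrially encoded genes, no animals of 26 and 27 months, a single fit for age, replicate or animal blocks, and leaving out each sample or replicate number. Same replicate numbers did not pair samples of the 4 groups within a population (median correlation of same-numbered residuals 0.006 in Paneth cells, -0.00101 in progenitors and 0.0234 in ISCs). Populations sorted from the same mouse do share an origin (median correlations 0.0623 to 0.0859), which the animal block takes up.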

Additional observations from a re-analysis of the deposited data

Results flagged for a closer look

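In 13 of 108 groups of 5 to 7 samples (12%), the highest sample of a member stood apart from the others by Dixon's test. Its nominal rate of about 1 in 20 groups holds for independent, normally distributed values. Values here were CPM without a log, and groups shared animals, so 12% cannot be read as an excess over chance. All 13 flagged samples stood high, and no cause was tested. Mt2 was 36.5 CPM in ISC aged male replicate 4 (next 8.87 CPM), 35.9 CPM in ISC young female replicate 6 (next 12 CPM) and 30.8 CPM in Paneth young female replicate 4 (next 11.2 CPM), the last pair from the same animal. Slc30a2 was 12.8 CPM in ISC aged female replicate 2 (next 7.70 CPM), the sample with immune transcripts, and 16.6 CPM in progenitor young male replicate 2 (next 5.08 CPM). Slc39a14 was 53 CPM in Paneth aged male replicate 2 (next 28 CPM) and 44.7 CPM in progenitor young female replicate 5 (next 29.0 CPM). Slc30a1 was 15.9 CPM in that same progenitor sample (next 7.78 CPM) and 6.24 CPM in Paneth young male replicate 6 (next 1.42 CPM). Slc39a4 was 96.9 CPM in ISC young male replicate 1 (next 80.3 CPM), and Slc39a5 was 190.5 CPM in Paneth aged male replicate 4 (next 115 CPM). Slc30a5 was 65.2 CPM in ISC aged female replicate 1 (next 51.7 CPM) and 93.4 CPM in progenitor aged male replicate 5 (next 75.2 CPM).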

How the results depend on the processing

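The rise of Slc39a4 in aged progenitors was called under every alternative and in all 20 fits without 1 sample (highest adjusted p 0.0203). With age in ISCs, the number of members called, 1 as reported, was 2 by DESeq2 and 0 in the fit of all populations, with unscaled totals, by limma-voom and with replicate number as a block (Slc39a4 adjusted p 0.0757), and 0 to 1 when 1 sample was left out. With age in Paneth cells, 0 as reported, it was 1 by DESeq2, in the fit of all populations and with unscaled totals, and 0 to 1 when 1 sample was left out. Members called for Paneth cells against progenitors were 3 as reported at each age. In aged mice they were 5 by limma-voom and 2 to 5 when a replicate number was left out (5 without replicate 2). In young mice they were 5 by DESeq2 and 5 with its size factors. Of 13287 genes, limma-voom called 4124 in aged mice (3295 as reported), and without replicate 2 the calls were 2753 of 13355. In young mice DESeq2 called 3749 genes and its size factors gave 3501 (3474 as reported).

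Unscaled totals called 8 members for Paneth cells against ISCs at each age and 9 against progenitors at each age, nearly all lower. Of 13287 genes, these fits called 11040 in aged and 11466 in young mice against ISCs. Against progenitors they called 10110 in aged and 10716 in young mice, so most genes of any kind were called. The median of all genes moved to -1.61 in aged and -1.85 in young mice against ISCs. Against progenitors it moved to -1.43 in aged and -1.70 in young mice. The share of called genes that were higher against ISCs was 5.5% in aged mice (57.6% as reported) and 4.4% in young mice (57.4%), and against progenitors 3.98% in aged mice (55.8%) and 3.01% in young mice (54%). Log2 values that reversed for Paneth cells against ISCs were Slc39a4 -0.90, Slc39a5 -0.94, Slc39a7 -0.30, Slc39a14 -1.20, Slc30a1 -1.33, Mt1 -1.53 and Mt2 -1.53 in aged mice, and Slc39a4 -1.40, Slc39a5 -1.15, Slc39a7 -0.71, Slc39a14 -1.24 and Slc30a2 -0.51 in young mice. Against progenitors they were Slc39a7 -0.99 in aged mice and Slc39a5 -1.42, Slc39a7 -1.46 and Slc39a14 -1.64 in young mice. For Paneth cells against ISCs with unscaled totals, Slc39a7 in aged mice (adjusted p = 0.0547) and Slc30a2 in young mice (0.0831) fell short of the threshold. The cause of these reversals was not tested.

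With animal as a replicate block, calls were lost for Slc30a1 (adjusted p 0.183) and Slc39a7 (0.0745) in aged mice and Slc39a5 (0.205) in young mice, and no other call of a member changed. Over all genes, calls with age in ISCs, 42 as reported, were 106 by DESeq2. In progenitors, 86 as reported, they were 142 by DESeq2, 9 in the fit of all populations and 34 without animals of 26 and 27 months. In Paneth cells, 8 as reported, they were 29 by DESeq2, 346 in the fit of all populations, 22 unscaled, 14 by limma-voom, 3 with technical library 1 and 2 without the oldest animals. Differences of age effects between Paneth cells and ISCs, 5 as reported, were 32 by DESeq2. Depth limits Slc30a1 and Mt2 most, at medians of 1 and 5 counts per technical Paneth library.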
